A study of Caenorhabditis elegans with 2 samples.

Results

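The summits described here are the 753 LIN-38 peak summits that lie on chromosome V of Caenorhabditis elegans, in 709 separate regions, since some peaks overlap. They are all entries of chromosome V in the conservative peak list of a chromatin immunoprecipitation sequencing (ChIP-seq) experiment, chosen by chromosome alone, out of 5405 summits on the nuclear chromosomes and 5431 in the whole list. A summit is the position of the highest signal within a peak, and each peak carries a signal value, the authors' score for its height, whose scaling is not stated. Values per replicate are those of the overlapping peak in each replicate's own ranked list. All animals were of strain RW12236, in which CRISPR placed TY1, EGFP and 3xFLAG tags on the lin-38 gene itself on chromosome II (allele st12236[lin-38::TY1::EGFP::3xFLAG]), so that the tagged protein was made wherever that gene is normally active. The culture was synchronised from L1 larvae starved after bleaching, whole L4 larvae aged 48 hours were taken, and an anti-GFP antibody pulled down the tagged protein from sonicated chromatin. There was 1 group of 2 biological replicates, called replicate 1 and replicate 2, with no second genotype, treatment or stage. Because whole animals were used, a summit cannot be assigned to a tissue, and a site bound in few cells cannot be told apart from a site bound weakly in many. Untagged or input control libraries were not analysed here.

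In the worm, lin-38 belongs to the synMuv A genes. They act in parallel with the synMuv B genes, among them that of the retinoblastoma protein LIN-35 and its partners, and worms that have lost function in both classes form several vulvae. Each C. elegans autosome has a gene-dense centre and an arm on either side, and the arms are rich in large, fast-evolving gene families that worms use to sense and to survive their surroundings, such as chemoreceptor, F-box, C-type lectin and nuclear hormone receptor genes. Chromosome V is the longest chromosome and the main home of the chemoreceptor families.

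The sequences under the tallest promoter summits show what the strong sites of the chromosome look like. Each is 100 bases of the + strand of ce11 centred on a summit, printed for the highest promoter summits of each of 3 equal segments of the chromosome (left, centre and right) whose window touched no annotated exon or UTR. Capitals mark every match, on either strand, to the 5 6-mers that were most frequent at summits relative to their flanks on the other 4 autosomes. The first is CGCGCG and the next is GCGCGC. The third is ACGCGC, the fourth is AGCGCG and the fifth is GAGCGC. These 6-mers overlap one another and their reverse complements were counted with them. The windows of F44E7.4, R186.8 and nstp-10 were passed over in favour of the next in rank, because each holds a run of 30 or more bases that also occurs on another chromosome.

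In the left segment the windows lie at chrV:773395-773494, 73 bp upstream of sti-1, which encodes a co-chaperone that links Hsp70 and Hsp90, at chrV:904740-904839, 173 bp upstream of trm-2A, a tRNA methyltransferase gene in RefSeq, and at chrV:4890110-4890209, 269 bp upstream of T19H12.2.
sti-1: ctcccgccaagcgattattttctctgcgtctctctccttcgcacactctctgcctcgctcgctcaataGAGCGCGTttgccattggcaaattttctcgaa
trm-2A: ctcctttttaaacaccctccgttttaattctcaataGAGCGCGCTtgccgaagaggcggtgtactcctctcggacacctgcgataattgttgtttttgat
T19H12.2: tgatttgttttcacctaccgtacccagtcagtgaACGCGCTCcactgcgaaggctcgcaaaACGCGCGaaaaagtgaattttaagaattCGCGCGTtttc

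In the centre the windows lie at chrV:10897326-10897425, 233 bp upstream of sec-61.G, a subunit of the channel that brings proteins into the endoplasmic reticulum, at chrV:8413744-8413843, 292 bp upstream of pos-1, which encodes an RNA-binding protein of the early embryo, and at chrV:12728411-12728510, 170 bp upstream of mrpl-49 and 349 bp upstream of rpl-28, genes of the mitochondrial and the cytosolic ribosome.
sec-61.G: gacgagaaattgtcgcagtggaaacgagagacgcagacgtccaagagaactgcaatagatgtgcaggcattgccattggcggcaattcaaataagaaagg
pos-1: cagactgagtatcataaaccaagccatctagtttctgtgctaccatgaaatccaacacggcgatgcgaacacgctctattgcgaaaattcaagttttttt
mrpl-49: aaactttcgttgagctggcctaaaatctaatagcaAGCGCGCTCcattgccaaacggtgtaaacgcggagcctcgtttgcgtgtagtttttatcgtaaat

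In the right segment the windows lie at chrV:14685711-14685810, 276 bp upstream of a 5′ end of C47E8.4 and 399 bp upstream of one of hsp-90, the gene of the cytosolic Hsp90 chaperone, at chrV:16965814-16965913, 189 bp upstream of efl-1, which encodes the E2F transcription factor that works with LIN-35, and at chrV:15002245-15002344, 72 bp upstream of fib-1, the gene of the nucleolar methyltransferase fibrillarin, and 248 bp upstream of mut-15, a gene of the small RNA mutator pathway.
C47E8.4: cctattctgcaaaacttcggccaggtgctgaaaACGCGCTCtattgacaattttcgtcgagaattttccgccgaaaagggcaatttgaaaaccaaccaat
efl-1: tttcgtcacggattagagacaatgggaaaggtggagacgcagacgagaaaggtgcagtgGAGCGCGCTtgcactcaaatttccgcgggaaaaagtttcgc
fib-1: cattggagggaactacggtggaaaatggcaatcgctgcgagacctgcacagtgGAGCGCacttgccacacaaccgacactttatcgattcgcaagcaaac

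At least 1 of the 5 6-mers lay in 29.7% of the 753 windows of chromosome V, against 4.25% of the 1506 windows of equal width with centres 300 bp away on each side. On the other 4 autosomes, where the 6-mers were chosen, the shares were 30.5% at summits and 5.01% at the flanks. Among 6893 windows of the same width, 200 to 101 bp upstream of every annotated 5′ end on chromosome V, 4.19% held 1. The single 6-mer GAGCGC lay in 133 windows of chromosome V, or 17.7% (Wilson 95% interval 15.1 to 20.5), against 1.66% of the flanks. The G and C bases made up 44.1% of the summit windows and 36.1% of the flanks on chromosome V, so the flanks were poorer in the letters of these 6-mers.

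The printed windows also share letters beside the 6-mer. The pattern TNGAGCGC, in which N is any base, was read off these sequences after they had been seen and was counted on both strands, where it contains the 6-mer GAGCGC by construction. It lay in 7 of the 9 printed windows and in 90 of the 753 summit windows of chromosome V, which is 12% (9.83 to 14.5), against 0.664% of the flanks and 0.841% of the windows upstream of all 5′ ends. On the other 4 autosomes it lay in 13.0% of summit windows and 1.48% of flanks. On chromosome V the 90 summits with the pattern had a median signal value of 678, against 179 for the 663 summits without it. The 90 include the 7 printed windows, which were picked for height, and signal values by pattern were not compared on the other autosomes. The left segment held it at 19.1% of its summits, the centre at 8.45% and the right segment at 8.53%. The sec-61.G and pos-1 windows hold none of the 5 6-mers, and neither do most summits of the chromosome. A match is a description of the letters and not a measured binding site.

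Some tall summits lie on repeated DNA. The windows at R186.8, which RefSeq annotates as a mitochondrial ribosomal protein gene, and nstp-10, a nucleotide sugar transporter gene, share an identical stretch of 49 bases, whereas the next longest stretch shared by any pair among the 9 highest windows was 16 bases. Exact copies of the 49 bases occur 17 times on the nuclear chromosomes. Of these, 3 lie on chromosome V, the copies at R186.8 and nstp-10 through which the stretch was found, and an intergenic copy that had a summit of signal value 1235 within 200 bp. Of the 14 copies elsewhere 4 had a summit within that distance. A run of 30 bases that recurs elsewhere on the nuclear chromosomes was present in 151 summit windows of chromosome V, or 20.1% (17.3 to 23.1), against 12.4% of their flanks, and in 19.1% of the summit windows of chromosomes I to IV. On chromosome V such runs were present at 10.7% of promoter summits, 27.3% of intergenic, 40.8% of intronic and 53.5% of small RNA gene summits. The sources used here do not give how reads from repeated sequence were treated, and its part in the height of these summits was not tested.

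Chromosome V carried few LIN-38 summits for its size. It had 36 summits per Mb over 20.9 Mb, against 78.8 on chromosome I, 60.7 on II, 81 on III and 57.1 on IV. Chromosome V held 15.1% (14.1 to 16.1) of the 4984 autosomal summits but 25.3% of the autosomal length and 29.0% of the autosomal protein-coding genes. The same share was 15.5% in the list of replicate 1 alone and 14.8% in that of replicate 2 alone. Before any threshold, the ranked candidate peaks were also fewer on chromosome V, with 404 per Mb in replicate 1 and 399 in replicate 2, against 595 to 888 per Mb in replicate 1 and 591 to 894 in replicate 2 on the 4 other autosomes. The 5 densities are single values of 1 list. Summits and genes of a chromosome are not replicates of a condition, so no test between chromosomes was made, and the intervals given cover counting only.

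The promoter window of a gene ran from 500 bp before to 200 bp after any of its annotated 5′ ends, and a summit in it is called a promoter summit of that gene. On chromosome V 438 of 4994 protein-coding genes had one, or 8.77% (8.02 to 9.59), against 14.6% of protein-coding genes on all nuclear chromosomes. The shares were 24.8% (23.3 to 26.4) on chromosome I, 14.1% (13.0 to 15.4) on II, 23% (21.4 to 24.6) on III and 15.7% (14.5 to 17) on IV. The interval of chromosome V thus lay below those of the 4 other autosomes. In each replicate's own list V was again the lowest of the 5 autosomes, with 8.25% on V in replicate 1 and 7.93% in replicate 2, against at least 12.6% on each other autosome in either.

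The arm families made up much of chromosome V and almost none of its bound genes. The 7 families counted by gene name hold 1365 genes of chromosome V, 27.3% of its protein-coding genes, against 9.36% on chromosomes I to IV, so that chromosome V had 54.3% of all autosomal members. Only 11 of the 1365 had a promoter summit, or 0.806% (0.451 to 1.44), against 38 of 1147, or 3.31% (2.42 to 4.51), on chromosomes I to IV. On chromosome V the count was 7, or 0.513%, without replicate 1, 10, or 0.733%, without replicate 2, and 6, or 0.440%, among summits above the list's median signal value. Outside the families, 427 of 3629 genes of chromosome V had a promoter summit, or 11.8% (10.8 to 12.9), against 2286 of 11101, or 20.6% (19.9 to 21.4), on chromosomes I to IV. By chromosome, the share outside the families was 26% on I, 16% on II, 24.2% on III and 17.2% on IV, each above that of V with intervals that did not overlap.

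**Figure D1:**
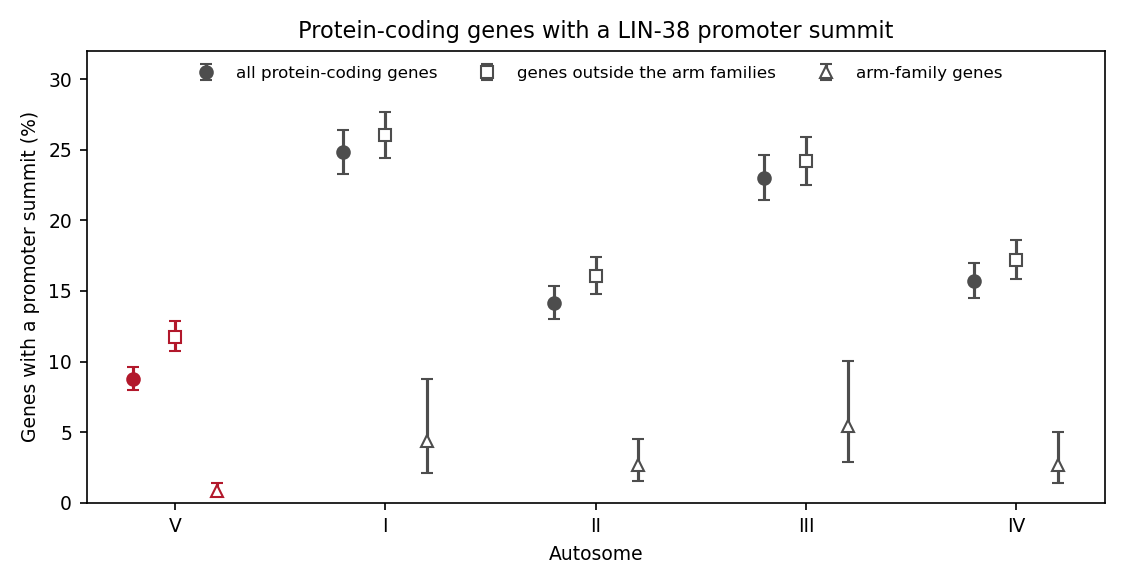
Percent of protein-coding genes with a LIN-38 summit in the promoter window on each autosome, V first and in red, for all genes (filled circles), genes outside the 7 arm families (open squares) and arm-family genes (open triangles). Bars are Wilson 95% intervals. On V the shares are 8.77%, 11.8% and 0.806%.

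Genes outside the families were split by how well they are known and by their neighbours. Among those with a gene-class name, 18.2% of 1497 had a promoter summit on chromosome V, against 28.0% of 5557 on chromosomes I to IV. Among those with only a sequence name the shares were 7.27% of 2132 on chromosome V, against 13.1% of 5544. Genes of chromosome V with no family member as a direct neighbour had a promoter summit in 381 of 2674 cases, or 14.2% (13.0 to 15.6), those with 1 such neighbour in 39 of 796, or 4.90% (3.6 to 6.63), and those with a family gene on both sides in 7 of 159, or 4.4% (2.15 to 8.81). On chromosomes I to IV the same shares were 21.8%, 11.0% and 2.00%. Genes next to the families were thus bound less often than genes away from them on chromosome V as on the others, and genes away from them were bound less often on V than on I to IV.

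Of the 11 family genes with a promoter summit, 6 shared it with a gene outside the families. Of 890 chemoreceptor genes, which encode receptors of sensory neurons, 3 had a promoter summit, or 0.337% (0.115 to 0.986), against 2 of 386, or 0.518% (0.142 to 1.87), on chromosomes I to IV. The tallest, of srh-16, had signal values of 465 in replicate 1 and 466 in replicate 2. The summit of srh-2 had 101 in replicate 1 and 69.6 in replicate 2, and that of srg-53, shared with T02B11.8, had 81.3 and 74.7 and was not in the own list of replicate 2. All 3 were far below the chromosome's tallest promoter summits.

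Of 90 F-box, MATH and BTB genes, which encode substrate adaptors of ubiquitin ligases, 4 had a promoter summit on chromosome V, or 4.44% (1.74 to 10.9), against 10 of 305, or 3.28% (1.79 to 5.93), on chromosomes I to IV. In this family and the chemoreceptors the intervals overlapped, and the pooled family share also depends on which families a chromosome holds. The summit of bath-36 had signal values of 492 in replicate 1 and 457 in replicate 2, and it lay also in the window of cyn-7, a cyclophilin gene. Those of fbxa-106, fbxb-72 and fbxa-211 had 250, 132 and 56.5 in replicate 1 and 193, 104 and 47.9 in replicate 2, and the last was in neither own list.

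Of 167 nuclear hormone receptor genes, which encode ligand-regulated transcription factors, 4 had one, or 2.40% (0.935 to 6), against 8 of 79, or 10.1% (5.22 to 18.7), on chromosomes I to IV. Here too the intervals overlapped, if narrowly. The summit of nhr-47, with 564 in replicate 1 and 557 in replicate 2, lay also in the window of the J-domain gene dnj-19. The summits of nhr-68, nhr-193 and nhr-101 had 143, 73.7 and 48.7 in replicate 1 and 130, 61.5 and 52.3 in replicate 2. Those of nhr-193 and nhr-101 were in neither own list, and the nhr-101 summit is also that of pms-2, a mismatch repair gene.

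No promoter summit was found on chromosome V at 86 C-type lectin genes, many of which respond to microbes, 92 detoxification genes, 33 genes of the collagens that form the cuticle, or 7 pals genes, which take part in the response to intracellular pathogens. On chromosomes I to IV, 4 of 151 C-type lectin, 7 of 84 detoxification, 7 of 111 collagen and 0 of 31 pals genes had one. The upper Wilson bound of the empty share on V was 4.28% for lectins, 4.01% for detoxification genes and 10.4% for collagens, so that only for detoxification genes did it lie below the lower bound of the other autosomes, by a small margin, at 4.10%. Leaving out the 6 family genes that share their summit with a gene outside the families, 5 of 1359, or 0.368%, had a promoter summit.

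Along the chromosome the summits were densest in the centre. Cut into 3 equal lengths of 6.97 Mb, chromosome V had 246 summits in the left segment, 296 in the centre and 211 in the right segment, which is 35.3, 42.4 and 30.3 per Mb. The centre held 39.3% (35.9 to 42.8) of the summits of V, against 34.2% (32.8 to 35.6) on chromosomes I to IV together, and 35.7% on I, 35% on II, 34% on III and 31.8% on IV. The share of genes with a promoter summit was 8.17% of 1554 in the left segment, 10.9% of 1798 in the centre and 7% of 1642 in the right segment. Outside the families it was 11.8%, 13.2% and 9.94% in the same order, so the segments lay closer together, and the families made up 32.7%, 18.5% and 32% of their genes. Even the centre of chromosome V, at 42.4 summits per Mb, was below every segment of the other autosomes except the left segment of II, at 40.8.

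**Figure D2:**
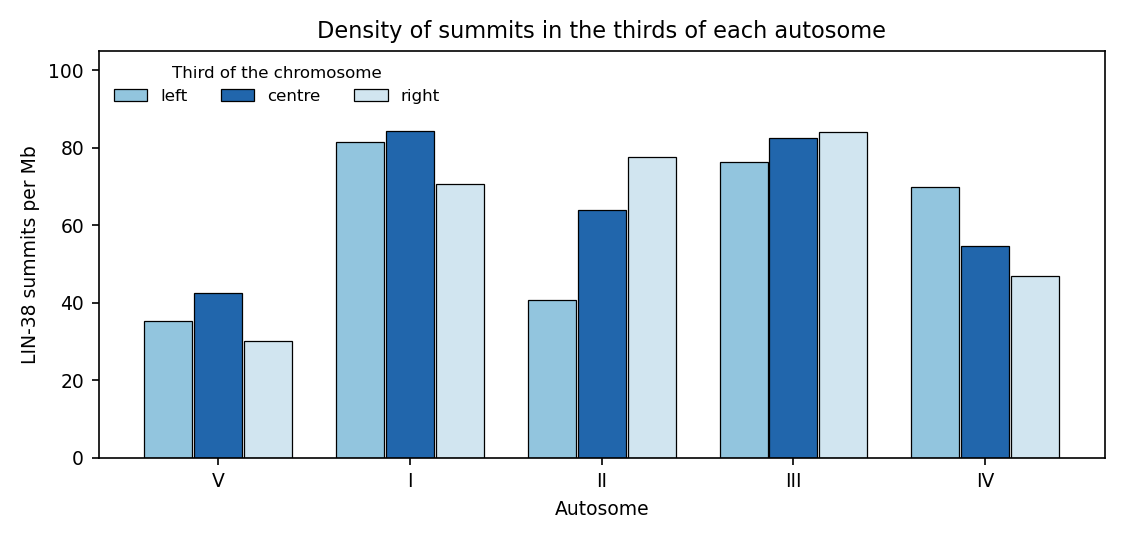
LIN-38 summits per Mb in the left segment, centre and right segment of each autosome, V at the left, counted in the conservative list. On V the bars are 35.3, 42.4 and 30.3 per Mb, and on the other autosomes only the left segment of II, at 40.8, is below the centre of V.

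Within the segments the summits were uneven. In 20 equal bins of 1.05 Mb, counted from the left end of chromosome V, the fullest were the 14th with 66 summits and the 6th with 64, and the emptiest were the 17th with 10 and the 16th with 15. In the 17th bin 3 of 237 genes, or 1.27%, had a promoter summit and 49.4% of the genes belonged to the arm families. In the 3rd bin, where the families reached 54.5% of the genes, 10 of 279 had one. The 9th bin, in the centre, did not follow the families. There 10.2% of the genes belonged to them, the lowest share of the 20 bins, and 5.65% of the other genes had a promoter summit. Across the 20 bins the rank correlation between the family share and the share of other genes with a summit was -0.45 on chromosome V, and with as many bins it was -0.46 on I, -0.71 on II, 0.10 on III and -0.16 on IV. These are descriptions over neighbouring bins of 1 peak list.

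**Figure D3:**
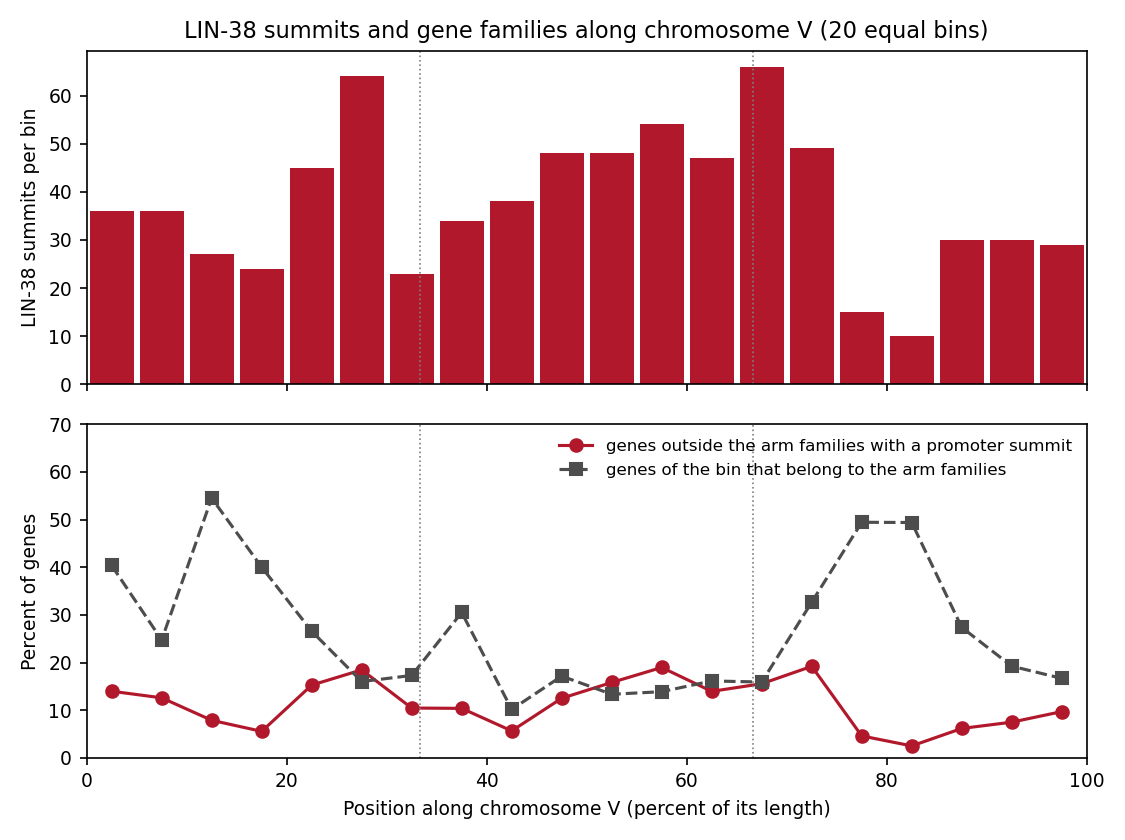
Chromosome V in 20 equal bins, by percent of its length, with dotted lines at the borders of the 3 segments. The upper bars count LIN-38 summits, from 10 to 66 per bin. The lower lines give the percent of genes outside the arm families with a promoter summit (red circles) and the percent of genes that belong to the families (grey squares).

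Long stretches without any summit were common on chromosome V. It had 54 gaps of more than 100 kb between neighbouring summits, which together took up 45.2% of its length, against 13 gaps and 11.9% on chromosome I, 22 and 22.2% on II, 10 and 9.51% on III, and 29 and 24.0% on IV. Its longest gap, of 696 kb, ran from the tall summit of efl-1 at position 16965864 to a summit at 17662040 in an intron of F59A1.11, where the nearest 5′ end is that of dgat-2, a triglyceride synthesis gene. It held 149 protein-coding genes, of which 78 belonged to the families, 57 of them chemoreceptor and 16 F-box, MATH or BTB genes. The gap also held all 15 annotated rRNA genes of the chromosome, which are copies of the 5S gene between positions 17115903 and 17428996, and 12 spliced leader genes named sls-1 among them. How reads from such repeated genes were placed was not tested. Replicate 1 had 1 peak of its own thresholded list inside the gap and replicate 2 had none. The ranked candidates there, 29 in replicate 1 and 34 in replicate 2, had medians of 25.2 and 19.5 and reached 134 and 184.

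The next gaps lay in the left segment. The 375 kb between the promoter summit of atg-9, an autophagy gene, and that of fbxb-72 held 117 genes, of which 65 belonged to the families, 36 of them chemoreceptor and 23 nuclear hormone receptor genes. The 374 kb between an intergenic summit nearest K08D9.4 and the promoter summit of pygl-1, which encodes glycogen phosphorylase, held 109 genes, 41 of them of the families. In the 345 and 322 kb gaps that came next, 36 of 85 and 55 of 93 genes belonged to the families. All 5 gaps held a larger share of family genes than the whole chromosome, at 37.6 to 59.1%, against 27.3%. They lay in the left and right segments, where the families made up 32.7% and 32% of the genes. Gaps are free of summits by definition and family genes seldom had one, so part of the excess follows by construction.

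Where the genes of growth and protein production lie on chromosome V, they were bound about as often as elsewhere. Over 10 lists of such genes, 42 of 68 on chromosome V had a promoter summit, or 61.8% (49.9 to 72.4), against 260 of 412, or 63.1% (58.3 to 67.6), on chromosomes I to IV. These lists held 1.36% of the genes of chromosome V and 3.36% of those of chromosomes I to IV. The share of 61.8% stands beside the 8.77% of all genes of chromosome V, and beside the 14.6% of all nuclear genes.

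Most ribosomal protein genes had a promoter summit, whereas the 4 aminoacyl-tRNA synthetase genes were too few for a comparison. Of 8 cytosolic ribosomal protein genes, 6 had a promoter summit, all but rpl-11.1 and rps-27, against 63 of 71 on chromosomes I to IV. Outside the windows, a summit lay 377 bp downstream of a 5′ end of rpl-11.1, with 108 in replicate 1 and 132 in replicate 2. Another lay 904 bp downstream of one of rps-27, with 192 and 104. Of 10 mitochondrial ones, counted by gene name and so without R186.8, 7 had a promoter summit, against 32 of 60 on chromosomes I to IV. The shared summit of rpl-28 and mrpl-49 had signal values of 1716 in replicate 1 and 1577 in replicate 2, whereas that of rpl-2 had 104 and 64.1 and was not in the own list of replicate 2. The weakest of these summits was that of mrpl-4, with 50.4 and 66.4, in neither own list. The translation elongation factor gene eef-1G, which shares its summit with the replication fork gene ctf-4, had 2604 in replicate 1 and 2473 in replicate 2. Of the 4 aminoacyl-tRNA synthetase genes, which charge tRNAs, only vars-1 had a promoter summit, with 853 and 745, against 16 of 28 on chromosomes I to IV. The interval of this share on V, 4.56 to 69.9%, overlapped that on I to IV, 39.1 to 73.5%.

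Genes of protein folding and turnover were bound at several of the tallest sites. All 5 proteasome subunit genes had a promoter summit, or 100% (56.6 to 100), against 19 of 28, or 67.9% (49.3 to 82.1), on chromosomes I to IV. These intervals overlapped. The replicate 1 and replicate 2 values on V were 1499 and 1413 at the ATPase gene rpt-2, 574 and 448 at rpt-1, 165 and 150 at pas-2, 141 and 123 at pas-1, and 104 and 118 at pas-6. Of 14 chaperone genes 8 had a promoter summit, against 22 of 40 on chromosomes I to IV. The summit shared by C47E8.4 and hsp-90 had 3266 and 3469, that of dnj-22, shared with natc-1, 1593 and 1436, and that of the chaperonin subunit gene cct-7, shared with T10B5.4, 1443 and 1305. The mitochondrial Hsp70 gene hsp-6 had 276 and 231. The small heat shock genes hsp-16.2 and hsp-16.41 shared a summit with 99.6 and 91.0, and the promoter windows of hsp-16.1 and hsp-16.48, each annotated at 2 loci, held no summit. The nearest listed summits lay 925 bp downstream of a 5′ end of hsp-16.1, with 88.9 and 92.8, and 701 bp downstream of one of hsp-16.48, with 104.8 and 61.2.

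Of the 8 replication and cell cycle genes, 6 had a promoter summit, against 32 of 53 on chromosomes I to IV. At the kinetochore, hcp-1 and knl-3 had 1357 and 982 in replicate 1 and 1278 and 931 in replicate 2. The cyclin B gene cyb-3 had 546 and 603, the clamp loader gene rfc-1 509 and 486, and the helicase genes mcm-7 and mcm-3 131 and 174 in replicate 1 and 201 and 145 in replicate 2. No promoter summit was listed at cdc-25.2 or hcp-2. The other lists gave 3 of 7 trafficking genes, 2 of 4 respiratory chain genes, 3 of 4 translation factor genes and 1 of 4 splicing factor genes, too few for the shares to be told apart from those of chromosomes I to IV.

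Histone genes had promoter summits in 5 of 27 cases on chromosome V, or 18.5% (8.18 to 36.7), against 12 of 41 on chromosomes I to IV. None of 23 neuropeptide genes of V had one, with an upper Wilson bound of 14.3%, against 4 of 83. Both intervals on V take in the 8.77% of all protein-coding genes of the chromosome. Of the 4 genes of the synMuv, DREAM and vulval list on chromosome V, efl-1 had a promoter summit and let-418, which encodes a Mi-2 chromatin remodeller, and the Notch ligand genes lag-2 and apx-1 had none. On chromosomes I to IV 17 of 33 genes of this list had one, or 51.5% (35.2 to 67.5). The interval for 1 of 4 on V, 4.56 to 69.9%, takes in that whole range. The efl-1 summit had signal values of 3576 in replicate 1 and 3090 in replicate 2 and ranked 3rd in signal value among the 753.

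**Figure D4:**
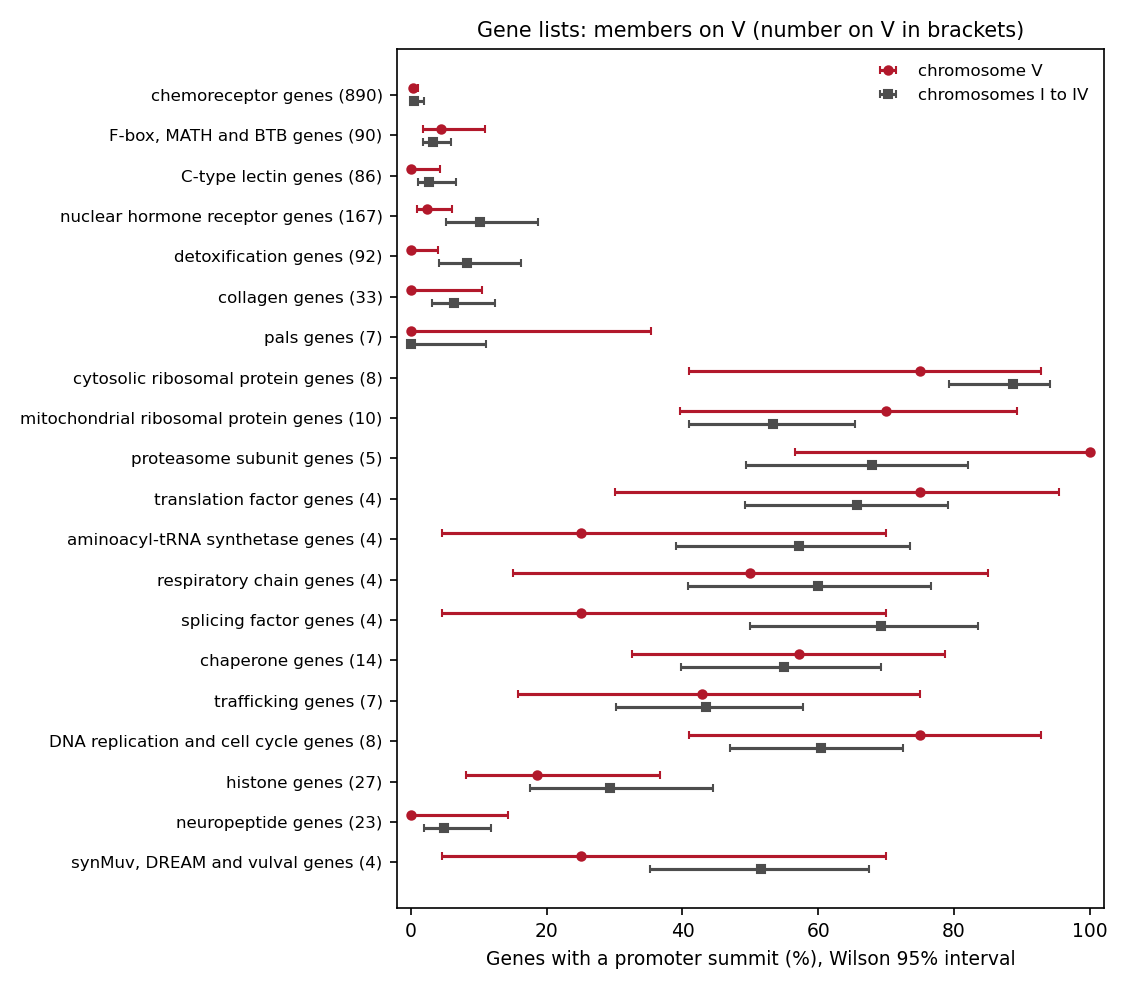
Percent of the members of 20 gene lists that had a promoter summit, on chromosome V (red circles, above) and on chromosomes I to IV (grey squares, below), with Wilson 95% intervals. The number of members on V is in brackets. The 7 family lists lie at 0 to 4.44% on V and at 0 to 10.1% on I to IV, while growth lists lie between 25 and 100% on V with wide intervals.

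The 20 tallest promoter summits of chromosome V were all in both replicates' own lists. The conservative list was itself thresholded by the irreproducible discovery rate, from both replicates. Agreement between the replicates at its summits is thus partly built in and is not independent support. The tallest, 30 bp upstream of Y39B6A.43, had 5320 in replicate 1 and 4931 in replicate 2, and it ranked 12th among all nuclear summits. R186.8 had 3426 and 3035, fib-1 with mut-15 2819 and 2640, and C01G10.7 with ahsa-1, which encodes an activator of Hsp90, 2811 and 2584. The lipid synthesis gene cept-2 had 2233 and 2073, and sti-1 had 2108 and 1918. Also among the 20 were phf-14, with 1911 and 1923, cyn-3, with 1845 and 1782, and E01B7.2, with 1786 and 1707. Values of the replicates lay close together at all of these, with log2 ratios of replicate 1 over replicate 2 from -0.09 to 0.31 over the 20 tallest summits of any class, of which 18 were higher in replicate 1.

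Each segment had tall promoter summits. The highest of the left segment were at sti-1, trm-2A, F44E7.4, T19H12.2 and W02G9.3, with 2108, 2054, 2153, 1747 and 1654 in replicate 1 and 1918, 1937, 1768, 1632 and 1616 in replicate 2. Those of the centre were at R186.8, eef-1G, nstp-10, sec-61.G and pos-1, which ran down to 1649 in replicate 1 and 1604 in replicate 2, and those of the right segment at Y39B6A.43, hsp-90, efl-1, fib-1 and ahsa-1, which ran down to 2811 and 2584. The weakest of the 5 in the right segment thus exceeded the strongest promoter summit of the left segment in both replicates. The median signal value over all summits was 184 in the left segment, 193 in the centre and 218 in the right segment.

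Summits of chromosome V fell into the same features as elsewhere. Promoter windows took 375 of 753, or 49.8% (46.2 to 53.4), although they cover 19% of the chromosome, against 47.7% (46.2 to 49.2) on chromosomes I to IV, where they cover 16.4%. Introns took 13.7% (11.4 to 16.3) on V, against 16.5% (15.4 to 17.7), intergenic sequence 19.9%, against 20.7%, coding exons 6.51%, against 5.37%, UTRs 4.38%, against 3.97%, and the surroundings of small RNA genes 5.71%, against 5.79%. All of these intervals overlapped. Within the promoter windows the median summit lay 144 bp upstream of the 5′ end on V and on I to IV alike, 81.1% lay upstream on V, against 83.5%, and 24% were in the windows of more than 1 gene on V, against 22.8%.

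Outside promoters the tallest summits were intergenic. The summit 516 bp upstream of vps-39, a gene of the HOPS complex that tethers vesicles to lysosomes, lay just outside the window and had 3530 in replicate 1 and 2855 in replicate 2. Those nearest F53E10.5 and djr-1.2, 1842 and 8637 bp upstream, had 2817 and 2127 in replicate 1 and 2554 and 1882 in replicate 2. The tallest summits at small RNA genes were at snoRNA genes, ZK994.7 inside pxn-1 with 979 and 1082, the pair C51F7.3 and C51F7.4 with 738 and 776, and T03F7.8 inside cutl-18 with 653 and 722. The tallest intronic summit, in F28F8.7, had 714 and 575, the tallest in a UTR, of cept-2 and 551 bp upstream of vha-13, 653 and 627, and the tallest in a coding exon, of nuaf-1, 187 and 152. Coding exons thus had the lowest maximum of the 6 classes.

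Small RNA genes of chromosome V differed by type. A summit lay within 200 bp of 30 of 78 tRNA genes, or 38.5% (28.4 to 49.6), against 68.2% of 66 on chromosome I, 66.7% of 57 on II, 70.3% of 64 on III and 57.7% (46.2 to 68.5) of 71 on IV. The interval of V overlapped only that of IV. The snoRNA genes went the other way, with 20 of 55, or 36.4% (24.9 to 49.6), on V, against 30.6% (25.3 to 36.5) on I to IV, with overlapping intervals. Of 40 snRNA genes 7 had a summit on V, against 43 of 86 on I to IV. All 7 were among the 28 outside the rRNA cluster. Of 28 miRNA genes 3 had one, or 10.7%, against 10.7% of 159 on I to IV.

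The heights of the summits were much alike between the chromosomes. The signal value does not measure how often a site was occupied. Its median was 196 over the 753 summits of chromosome V, against 210 over the 4231 of chromosomes I to IV, and it ranged between 199 and 220 on the 4 other autosomes. Promoter summits had a median of 290 on V, against 278, and the remaining summits 147, against 170. The log2 difference between the medians of all summits was -0.10, and it was -0.074 in replicate 1's own list and -0.071 in replicate 2's. It turned to 0.11 among summits above the list's median signal value and to 0.0053 among summits in both replicates' own lists, so no direction can be given.

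Of the 753 summits, 465, or 61.8% (58.2 to 65.2), overlapped a peak of both replicates' own lists, against 64.6% of all nuclear summits and 64.5% on chromosomes I to IV, and 133 overlapped neither. Cut into 4 groups of near-equal size by signal value, 28 of 189 were in both in the lowest group, 71 of 188 in the next, 178 of 188 in the one after, and 188 of 188 in the highest. The log2 ratio of replicate 1 over replicate 2 had a median of 0.06 and an SD of 0.37 over the 747 summits with a value in each, and the SD was 0.18 in the highest group, against 0.40 in the lowest. At 70 summits the peak of a replicate was also that of a neighbouring summit, so that its value there is not the summit's own. None of these was among the 20 tallest summits. Without them, 435 of 683, or 63.7% (60 to 67.2), were in both lists, and the log2 ratio again had a median of 0.06 and an SD of 0.37. The 3 lowest promoter summits, at F21C10.10, C56A3.5 and dhs-24, had 2.86, 3.02 and 3.6 in the conservative list and lay beside a taller summit of the same gene, of 186, 242 and 119, so they have no replicate value of their own.

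**Figure D5:**
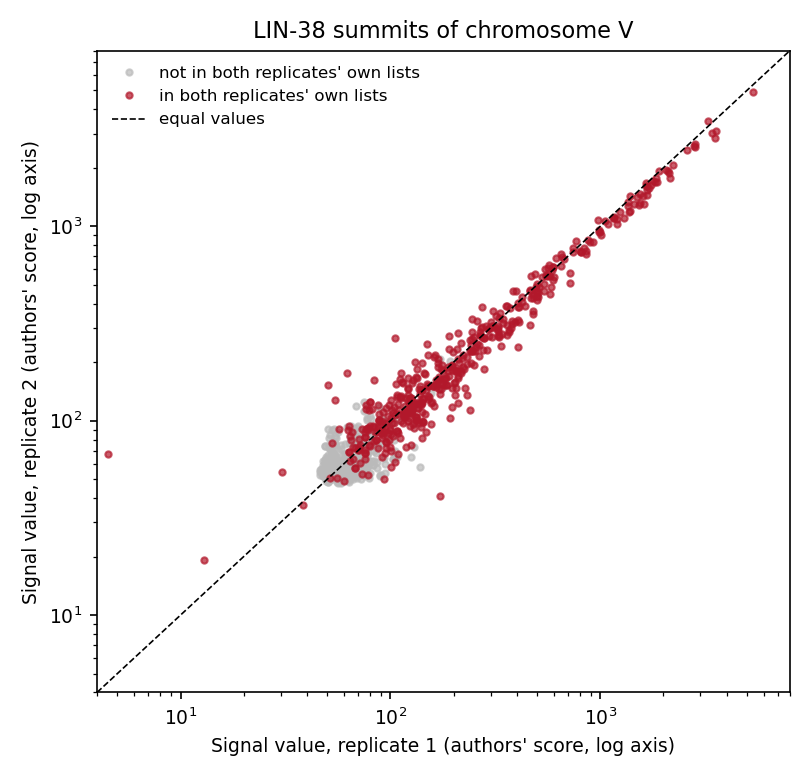
Signal values in replicate 1 (horizontal, log axis) and replicate 2 (vertical, log axis) at the 747 summits of chromosome V with a value in each, red for the 465 in both replicates' own lists and grey for the other 282. Some neighbouring summits share a replicate's peak and so a value. Points lie along the dashed line of equal values, closest for tall summits.

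The 5 6-mers went with height as well. At least 1 lay at 56.6% of the 189 highest summits of chromosome V, against 14.3% of the 189 lowest. By position they lay at 38.6% of summits in the left segment, 25% in the centre and 26.1% in the right segment, although the median signal value was lowest in the left segment. At promoter summits of V, GAGCGC lay in 21.9% of windows, against 13.5% at its other summits.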

How the data were processed

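LIN-38-EGFP ChIP-seq of 2 replicates was analysed from peak lists. Per the labels, positions are ce11. The authors deposited thresholded and ranked lists per replicate and for the series, each with a signal value per peak of unstated scaling. For aligner, caller and versions: not given in the sources used here. Depth is unknown, and p-values between groups are not possible with 1 group. Summits of the conservative list on nuclear chromosomes were set against Ensembl release 115 genes (29304 distinct 5′ ends) and classed in the order promoter, small RNA gene (within 200 bp), coding exon, UTR, intron, intergenic. Overlap meant at least 1 bp. Replicate values come from the overlapping peak of each replicate's ranked list. Families were defined by gene name. Shares carry Wilson 95% intervals. All 2080 6-mers were counted in 100 bp windows, and 5 were kept by ratio to the flanks among those in at least 5% of summit windows on chromosomes I to IV. Sequence was read from RefSeq's copy of WBcel235, the same assembly as ce11. Python 3.11.15, pandas 2.3.3, numpy 2.4.6, scipy 1.17.1 and matplotlib 3.10.9 were used, and the promoter assignment and 6-mer count were tested on simulated data.

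Genes named were drawn, without naming every one, from those at the 20 tallest promoter summits in both replicates' lists, the 5 tallest of each of the 3 segments, family and growth list members with a summit (up to 5 per list), the 3 tallest of other classes, the ends of the 3 longest gaps, the 3 lowest promoter summits and the synMuv, DREAM and vulval genes. List members without a summit and genes that share a promoter summit were named beside them, and the repeated stretch and the bins were singled out after their values were seen. Members and lists were chosen with earlier results of these data known. Alternatives were other peak lists, promoter windows, a wider centre, summits near small RNA genes left out and family genes with shared summits left out.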

Additional observations from a re-analysis of the deposited data

How the results depend on the processing

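Of 43 alternative values for 6 results, 21 stayed within the counting interval of the value reported (for the signal difference, within the spread between replicates, an SD of 0.0026), 20 moved and 2 reversed. No paired analysis was possible because there was only 1 group. Leaving out either replicate, so that 1 replicate's own list was used, gave 7.93 to 8.25% of genes with a promoter summit, 55.2 to 55.8% of summits in promoter windows, 38.8 to 41.3% in the centre, 0.513 to 0.733% of arm-family genes, 14.8 to 15.5% of autosomal summits on chromosome V, and a log2 signal difference of -0.074 to -0.071. Summits above the list's median signal value gave 5.87% of genes, 65.2% of summits in promoter windows, 0.440% of family genes and a signal difference of 0.11. A list of summits in both replicates' own lists, added after the data had been seen, gave 6.81% of genes, 60% in promoter windows and a signal difference of 0.0053. The series' other thresholded list gave a signal difference of -0.12. A window of 200 bp upstream to 100 bp downstream gave 4.79% of genes, 28.7% of summits and 0.440% of family genes, 1000 to 200 bp gave 10.3% and 57.6%, and the nearest 5′ end alone gave 7.07% of genes. A centre widened to the middle 50% of the length held 62.5% of summits, more by construction. With family genes left out where their summit also lay at a non-family gene, the family share was 0.368%, and without summits near small RNA genes the signal difference was -0.11. The causes of these moves were not tested, except that fewer summits or wider windows change counts by construction. The share of genes on chromosome V stayed below that of each other autosome in all 6 lists tried. Depth is unknown, so a gene without a summit was not shown to be unbound.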
